A study of Mus musculus with 50 samples.

Results

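Mouse mitochondria carry a small circular genome of their own, and these results describe every gene on it, split by the strand on which it is annotated. The genes were taken as all rows of the RNA count tables placed on chromosome M: 37 of the 37310 genes counted. The plus strand holds 28 of them, with 14 tRNA genes, both rRNA genes and 12 protein-coding genes. The minus strand holds 9, with 8 tRNA genes and mt-Nd6 as its one protein-coding gene. RNA was sequenced from untreated J1 mouse embryonic stem (ES) cells of strain 129S4/SvJae, cultured with serum and leukemia inhibitory factor on gelatin. Wild type cells were set against KO1 and KO2, a pair of lines with the genotype NSD1-/-, and each of the 3 groups held 2 libraries. NSD1 is a nuclear enzyme that methylates histone H3 at lysine 36; mitochondrial DNA carries no histones. How the lines were derived, whether each is a single clone, and whether the libraries within a group came from separate cultures are not given in the sources used here, so the p-values reflect library-to-library spread only, possibly of technical origin.

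Mitochondrial DNA is transcribed from both strands as long precursors that run through many genes, and cleavage of these precursors, largely at the tRNAs, releases the rRNAs, mRNAs and tRNAs. Most genes lie on the precursor read as the plus strand, while mt-Nd6 and a few tRNAs lie on the other, whose remaining length is antisense to genes and is usually degraded. The proteins are subunits of respiratory complexes I, III and IV and of the ATP synthase, and the rRNAs are as a rule by far the most abundant mitochondrial RNAs.

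Libraries held 1150089 to 1285487 counts. AY036118, a nuclear locus that overlaps a ribosomal RNA sequence, took 32.3% to 37.2% of them. The targeted gene Nsd1 held 21 and 25 counts in wild type, 55 and 38 for KO1, and 27 and 21 for KO2, which at this depth and on the counted strand does not check the genotype. The 10 ES cell markers summed to 339 to 368 counts in each library. Klf4 (133 to 174) and Sox2 (66 to 100) held most of them, while Nanog held 1 to 14 and Pou5f1 14 to 23. The sum is therefore not used as a check of cell identity. The 8 fibroblast markers summed to 13 and 15 counts in wild type, 16 and 16 for KO1, and 6 and 2 for KO2, and 5 of them (Col1a2, Col3a1, Dcn, Postn and Thy1) were at 0 in all 6 libraries. Abundant RNAs had few counts: Actb, which encodes beta-actin, held 104 to 144. The counts may therefore stand for fragments from the strand opposite to the gene they are listed under, which was not tested. All values below are for the gene as counted.

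The rRNA genes were nearly empty. The gene of the small-subunit rRNA, mt-Rnr1 (chrM:70-1024, plus strand), held 1 and 1 counts in wild type, 4 and 3 for KO1, and 2 and 1 for KO2. The gene of the large-subunit rRNA, mt-Rnr2 (chrM:1094-2675, plus strand), held 14 and 12, 19 and 14, and 14 and 11. If counts come from the opposite strand, those at plus-strand genes are RNA of the minus-strand precursor, antisense to the annotated genes, and those at mt-Nd6 and the minus-strand tRNA genes are RNA of the precursor that carries mt-Nd5 and mt-Cytb.

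Within each library, 2 adjoining genes held most mitochondrial counts. These were mt-Nd5 (chrM:11742-13565, plus strand) and mt-Nd6 (chrM:13552-14070, minus strand), both encoding complex I subunits, which together took 66.6% to 71.3%. In wild type replicates 1 and 2, KO1 replicates 1 and 2 and KO2 replicates 1 and 2, in that order, mt-Nd5 held 2160, 1936, 2910, 2294, 2770 and 2599 counts. In the same order mt-Nd6 held 1463, 835, 1358, 1227, 821 and 683. The order of libraries differed between the genes. In raw counts mt-Nd5 was lowest in both wild type libraries, while mt-Nd6 was highest in wild type replicate 1 and lowest in both KO2 libraries. In CPM (counts scaled to library size) mt-Nd5 was still lowest in both wild type libraries. For mt-Nd6, KO2 replicate 1 (732 CPM) was then above wild type replicate 2 (710 CPM), and KO2 replicate 2 was lowest (563 CPM). The annotated ends of mt-Nd5 and mt-Nd6 overlap by 14 bases, shown here because a fragment there belongs to a gene on each strand. The stretch is printed on the plus strand, with the overlap in capitals.
chrM:13532-13585: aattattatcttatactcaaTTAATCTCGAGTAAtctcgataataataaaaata

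**Figure D1:**
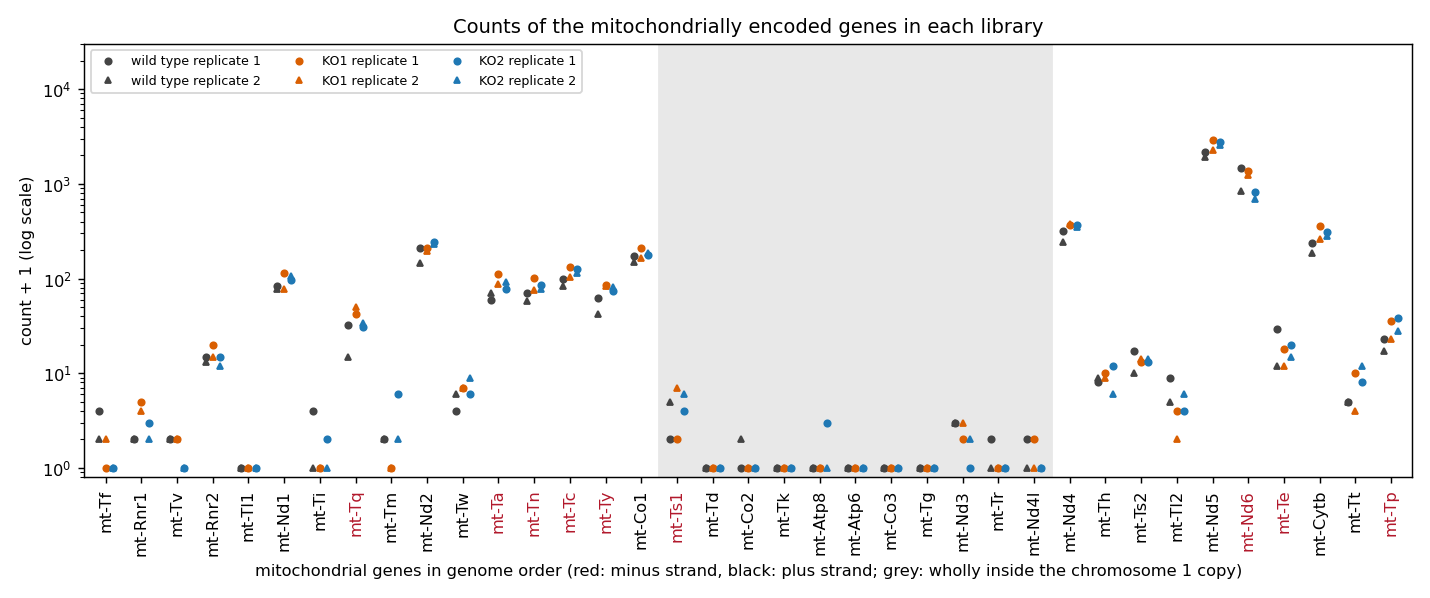
Count plus 1 on a log axis for each of the 37 mitochondrial genes in genome order; each point is 1 library, colours are groups and shapes are replicates. mt-Nd5 and mt-Nd6 stand above the rest, and the 11 genes in the grey band hold at most 6 counts in any library.

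The band of nearly empty genes coincides with a nuclear copy of the mitochondrial genome. In mm9, chr1:24618374-24623027 matches chrM:6390-11042 over 4654 aligned bases with 99.9% identity, in the opposite orientation. The 11 genes wholly inside the match, 10 on the plus strand and mt-Ts1 on the minus strand, together held 34 counts over all 6 libraries. Among them are mt-Co2 and mt-Co3, subunits of complex IV, and mt-Atp6 and mt-Atp8, subunits of the ATP synthase. The genes mt-Co2, mt-Atp8, mt-Nd3, mt-Nd4l and mt-Tr held 0 to 2 counts in any library. Per the file headers, fragments aligned to several places were not set to be counted. For these genes a low count is therefore no measure of their RNA. Of the gene models annotated in the nuclear copy, Gm10222 held 1 to 11 counts and Gm10925 held 0 in each library. Less similar nuclear copies exist. At chr2:22442808-22446054, a match of 97.4% identity to chrM:4441-7699 takes in mt-Co1, part of mt-Nd2 and the tRNA genes between them. At chr4:79648234-79651108, a match of 93.0% identity to chrM:12488-15359 takes in mt-Nd6, mt-Cytb and part of mt-Nd5. Loss of fragments to these copies was not tested. In what follows, the copy is the one on chromosome 1. The copy and the mitochondrial genome can be set side by side at mt-Nd3, a complex I gene, where the substitution T9461C (mitochondrial base, chrM position, base in the copy) is the one difference inside the match apart from a 1-base gap in mt-Tr and a difference at its edge. It is shown, as the capital, to make plain how few bases tell the 2 places apart.
chrM:9449-9473, plus strand: gaagagagtaatTaacctgtacact
chr1:24619944-24619968, minus strand: gaagagagtaatCaacctgtacact

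Counts along the rest of the genome followed one order in all 6 libraries. For this, each gene's whole count was divided by its length outside the nuclear copy. Compared as counts per kilobase outside the nuclear copy, plus-strand rRNA and protein-coding genes ran from mt-Nd5 (1061 to 1595 over the libraries) through mt-Nd4 (488 to 743), mt-Cytb (161 to 316), mt-Nd2 (141 to 233), mt-Co1 (140 to 198) and mt-Nd1 (79.4 to 117) to mt-Rnr2 (6.95 to 12.01) and mt-Rnr1 (1.05 to 4.19). The same order held in 6 of 6 libraries, although the ranges of mt-Cytb, mt-Nd2 and mt-Co1 overlap. On the minus strand mt-Nd6 had 1316 to 2819 counts per kilobase, a range that overlaps that of mt-Nd5. Along the genome, mean density was highest at mt-Nd6 and mt-Nd5 and lower on both sides: 238 at mt-Cytb on one side, and on the other 669 at mt-Nd4, 165 at mt-Co1, 198 at mt-Nd2, 95.8 at mt-Nd1 and 8.85 and 2.09 at the rRNA genes. mt-Nd4 and mt-Co1 lie partly inside the copy. Over their full lengths their means were 244 and 113 counts per kilobase, against 669 and 165 with all their counts assigned to the bases outside it. Where in these genes the fragments fell was not measured. With full lengths the order held in 4 of 6 libraries.

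**Figure D2:**
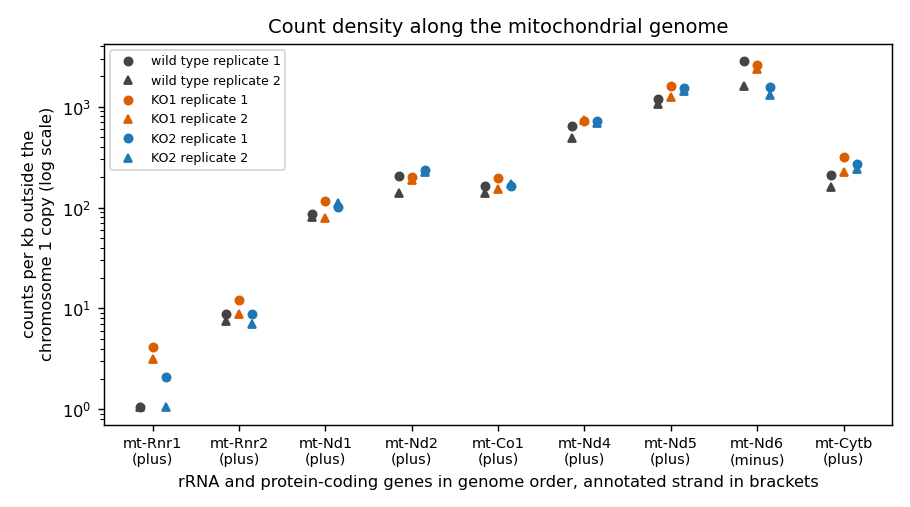
Whole count of each gene per kilobase of its length outside the chromosome 1 copy, on a log axis. The rRNA and protein-coding genes are in genome order, and each point is 1 library. On the plus strand means range from 2.09 at mt-Rnr1 to 1340 at mt-Nd5.

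The tRNA genes split by strand. Summed over the 8 minus-strand genes, counts were 370 and 296 in wild type, 520 and 434 for KO1, and 449 and 442 for KO2. Summed over the 14 plus-strand genes, they were 47 and 33, 40 and 33, and 44 and 43. Every library thus had more counts on minus-strand tRNA genes, although they are fewer. Of the plus-strand genes, 10 lie outside the nuclear copy, and none passed 16 counts in any library; the highest was mt-Ts2, a serine tRNA, with 16, 9, 12, 13, 12 and 13. mt-Tf, mt-Tv, mt-Ti, mt-Tm, mt-Tw, mt-Th, mt-Tl2 and mt-Tt held 0 to 11 and were not tested. mt-Tl1, a leucine tRNA outside the copy, had 0 counts in each library. For fragments that touch no other gene, this allows at most 2.33 to 2.61 CPM, counts per 1000000 of the library (3 counts of each library's total, counting error only). mt-Tl1 directly adjoins mt-Rnr2 and mt-Nd1 on the same strand, and fragments reaching either were not set to be counted. Its 0 therefore sets no upper limit on its RNA. Another 5 genes at 0 throughout, mt-Td, mt-Tk, mt-Tg, mt-Atp6 and mt-Co3, lie inside the copy. A fragment that reaches from a short tRNA gene into a neighbour annotated on the same strand was not set to be counted. A tRNA count therefore does not give a level relative to other genes, tRNA genes included. Shares of the library and ratios with tRNA counts below compare libraries only.

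A run of 4 minus-strand tRNA genes between mt-Nd2 and mt-Co1 held 77.8% to 84.8% of the minus-strand tRNA counts. In the library order given for mt-Nd5, the alanine tRNA mt-Ta held 59, 70, 110, 86, 77 and 92 counts. The asparagine tRNA mt-Tn held 70, 57, 100, 74, 85 and 77. The cysteine tRNA mt-Tc held 97, 83, 131, 104, 125 and 114. All 3 were lowest in a wild type library and highest in KO1 replicate 1. The tyrosine tRNA mt-Ty held 62, 41, 85, 82, 73 and 80. For each of the 4 genes of this run, both wild type libraries were below all 4 knockout libraries. In CPM that also held for them, and for 8.48% of all genes tested. The glutamine tRNA mt-Tq, which lies apart from this run near mt-Nd1, held 31, 14, 41, 49, 30 and 33. For mt-Tq the wild type libraries differed from each other more than either did from the nearest knockout library. The genes of this run and mt-Tq are printed as annotated, on the minus strand and in DNA letters, with the anticodon in capitals, since it tells these short genes apart. If the counts come from the opposite strand, the RNA counted is the complement of these sequences and not the tRNAs.
mt-Ta, chrM:5018-5086: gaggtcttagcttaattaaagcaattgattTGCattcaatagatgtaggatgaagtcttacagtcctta
mt-Tn, chrM:5089-5159: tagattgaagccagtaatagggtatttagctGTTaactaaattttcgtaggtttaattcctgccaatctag
mt-Tc, chrM:5192-5257: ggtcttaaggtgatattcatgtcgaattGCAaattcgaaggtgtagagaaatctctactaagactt
mt-Ty, chrM:5260-5326: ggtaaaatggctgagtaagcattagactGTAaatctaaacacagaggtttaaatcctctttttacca
mt-Tq, chrM:3772-3842: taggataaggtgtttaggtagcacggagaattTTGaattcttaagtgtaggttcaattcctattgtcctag

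The remaining minus-strand tRNA genes had at most 37 counts in any library. mt-Te, the glutamate tRNA beside mt-Nd6, held 28, 11, 17, 11, 19 and 14 counts. mt-Tp, the proline tRNA at the end of the gene array, held 22, 16, 35, 22, 37 and 27. Neither separated the knockout libraries from both wild type libraries. mt-Ts1, a serine tRNA inside the nuclear copy, held 1 to 6.

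The mitochondrial share of all counts differed between replicates as much as between groups. Mitochondrial genes held 5082 and 3917 counts in wild type, 6108 and 5073 for KO1, and 5292 and 4927 for KO2. In wild type these were 0.422% of the library (95% Wilson interval 0.411 to 0.434) and 0.316% (0.307 to 0.327). KO1 had 0.523% (0.510 to 0.536) and 0.425% (0.413 to 0.437). KO2 had 0.460% (0.448 to 0.473) and 0.383% (0.373 to 0.394). Replicate 1 exceeded replicate 2 in every group by more than these intervals, which cover counting error only, and wild type replicate 1 fell within the range of the knockout libraries. The mean was 0.369% ± 0.0748 (SD, n = 2) in wild type and 0.448% ± 0.0590 (n = 4) in the knockout libraries, a difference of 0.0783 percentage points (two-sided exact permutation test, p = 0.2). With 4 libraries against 2, that test cannot give a p under 0.0667. It takes no account of replicate number: among replicate 1 libraries, and among replicate 2 libraries, wild type was lowest and KO1 highest. In bulk RNA, more mitochondria in a cell and more RNA in each mitochondrion cannot be told apart.

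**Figure D3:**
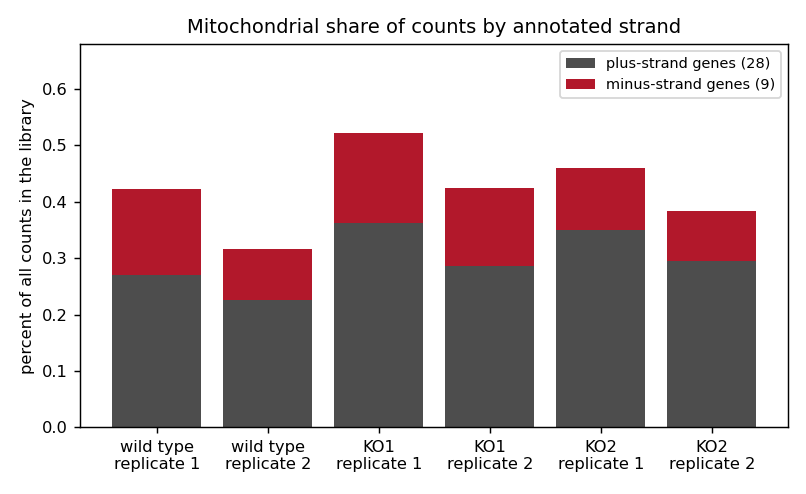
Percent of all counts in each library that fell on plus-strand (grey) and minus-strand (red) mitochondrial genes, stacked; each bar is 1 library. Replicate 1 is higher in each group, and wild type replicate 2 is the lowest bar at 0.316%.

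By strand, the plus-strand genes accounted for most of that difference. They held 3249 and 2786 counts in wild type, 4230 and 3412 for KO1, and 4022 and 3802 for KO2, and as a share of the library all 4 knockout libraries were above both wild type libraries. The mean share was 0.248% ± 0.0317 (SD, n = 2) in wild type and 0.323% ± 0.0381 (n = 4) in the knockout libraries (exact permutation p = 0.133). Minus-strand genes held 1833 and 1131 counts in wild type, 1878 and 1661 for KO1, and 1270 and 1125 for KO2. Their mean share was 0.122% ± 0.0431 and 0.124% ± 0.0321 (exact permutation p = 0.867), with wide overlap. The minus-strand tRNA genes alone went from 0.0273% ± 0.00483 in wild type to 0.0386% ± 0.00439 in the knockout libraries, 1.41-fold, at the smallest p the test can give (0.0667). The rest of the minus-strand counts, 60.7% to 79.8% of them, were those of mt-Nd6.

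Of the mitochondrial counts, minus-strand genes took 36.1% (95% Wilson interval 34.8 to 37.4) and 28.9% (27.5 to 30.3) in wild type. They took 30.7% (29.6 to 31.9) and 32.7% (31.5 to 34.0) in KO1, and 24.0% (22.9 to 25.2) and 22.8% (21.7 to 24.0) in KO2. Both KO2 libraries were below the 4 others. The knockout libraries together differed from wild type by -4.89 percentage points (exact permutation p = 0.333), and by -1.29 points without wild type replicate 1 or -8.49 without wild type replicate 2. Without mt-Nd6 the difference was 0.758 points, in the other direction.

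Ratios within a library, which need no scaling between libraries, showed the same feature. Counts of mt-Nd6 per count of mt-Nd5 were 0.677 and 0.431 in wild type, 0.467 and 0.535 for KO1, and 0.296 and 0.263 for KO2. KO2 averaged 0.280 ± 0.0238 (SD, n = 2), against 0.554 ± 0.174 in wild type and 0.501 ± 0.0482 in KO1, and did not overlap either. For 2 libraries against 2 the smallest exact permutation p is 0.333, which was the p of KO2 against wild type and of KO2 against KO1. Set against the minus-strand tRNA counts, mt-Nd6 was again lowest in KO2, at 1.83 and 1.55, with 3.95 and 2.82 in wild type and 2.61 and 2.83 in KO1. Minus-strand tRNA counts per mt-Nd5 count stayed between 0.153 and 0.189, mt-Nd4 per mt-Nd5 between 0.125 and 0.163, and mt-Cytb per mt-Nd5 between 0.0950 and 0.124. In these 3 ratios KO2 overlapped wild type, while KO1 overlapped it in the mt-Nd4 ratio and lay above it in the others.

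**Figure D4:**
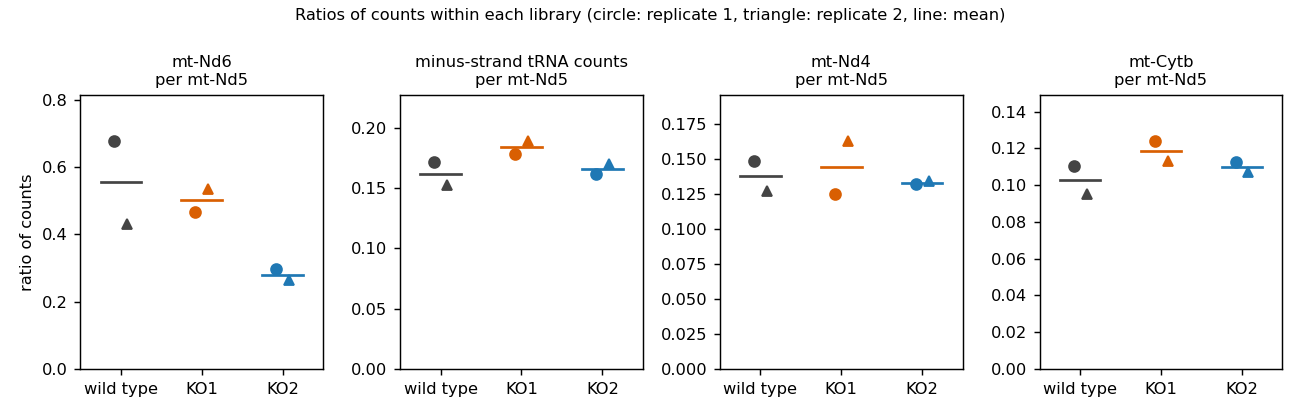
Ratios of counts within each library for mt-Nd6, the minus-strand tRNA genes, mt-Nd4 and mt-Cytb, each per count of mt-Nd5; circles are replicate 1, triangles replicate 2, lines group means. In the first panel both KO2 libraries (0.296 and 0.263) lie below the other 4.

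Gene by gene, 16 of the 37 mitochondrial genes had enough counts to be tested. The comparison asks how mitochondrial RNA differs in cells without NSD1. In the knockout lines together against wild type, 3 of the 16 rose and none fell by edgeR's quasi-likelihood test at a Benjamini-Hochberg adjusted p under 0.05 over all 5034 genes tested, of which 2.72% were called higher and 3.89% lower. They were mt-Cytb, the mitochondrially encoded subunit of complex III, mt-Nd4, a subunit of complex I, and mt-Ty. At an unadjusted p under 0.05 there were 10 of 16. The share of all genes at that level was not computed, for this count or for those at that level below. The median log2 fold change of the 16 was 0.32, against -0.01 over all genes tested, and 13 of 16 were above 0. Genes of one precursor and one library are not independent of each other.

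mt-Cytb held 238 and 184 counts in wild type, 361 and 259 for KO1, and 312 and 278 for KO2. In CPM scaled by effective library size it went from 182 ± 36.6 (SD, n = 2) to 254 ± 36.5 (n = 4), a log2 fold change of 0.48 ± 0.12 (SE; edgeR adjusted p = 0.0155). mt-Nd4 held 320 and 245, 364 and 373, and 365 and 348 counts, with a log2 fold change of 0.32 ± 0.09 (edgeR adjusted p = 0.0351). For mt-Ty the change was 0.59 ± 0.18 (edgeR adjusted p = 0.0351), from 44.6 ± 13.7 to 67.1 ± 1.90 CPM. In CPM all 4 knockout libraries were above both wild type libraries for these 3 genes. That also held for mt-Ta, mt-Tn, mt-Tc and mt-Nd5, making 7 of 16, against 8.48% of all genes tested, and the reverse held for none of the 16, against 10.1%.

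All 3 calls were lost without wild type replicate 2, the library with the lowest mitochondrial share, and some without a KO1 library. Without wild type replicate 2, mt-Cytb had a log2 fold change of 0.29 (edgeR adjusted p = 0.187), mt-Nd4 of 0.13 (adjusted p = 0.662) and mt-Ty of 0.32 (adjusted p = 0.575), none of them called, and the one mitochondrial gene called was mt-Nd6, as lower (-0.62, edgeR adjusted p = 3.35e-10). Without KO1 replicate 1, mt-Cytb (0.37, edgeR adjusted p = 0.0618) and mt-Ty (0.60, adjusted p = 0.0685) were not called, and without KO1 replicate 2, mt-Nd4 (0.29, adjusted p = 0.154) and mt-Ty (0.58, adjusted p = 0.0924) were not. Without wild type replicate 1, the median log2 fold change of the mitochondrial genes tested was 0.48, against 0.20 without wild type replicate 2. Fits with a library left out tested 17 or 18 mitochondrial genes, so their medians, here and below, are not over the same 16. DESeq2's Wald test called none of the 16 (4 at an unadjusted p under 0.05), where it called 115 of all genes. A single mean for the 4 knockout libraries also called none by edgeR (5 at an unadjusted p under 0.05). That setting called 6 of all 5034 genes, so its 0 of 16 says little about the mitochondrial genes.

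The most abundant gene, mt-Nd5, went from 1768 ± 173 CPM (SD, n = 2) to 2222 ± 240 (n = 4), a log2 fold change of 0.33 ± 0.10 that was not called (edgeR adjusted p = 0.141). At a similar size it was called with no filter (0.32, edgeR adjusted p = 6.80e-07), with a minimum count of 20 (0.35, adjusted p = 0.0352) and when any one knockout library was left out (0.26 to 0.39, adjusted p from 6.24e-11 to 0.0103). It was not called without wild type replicate 1 or 2 (edgeR adjusted p = 0.0815 and 0.287). Other plus-strand values, likewise not called, were 0.25 ± 0.12 for mt-Nd2 and 0.24 ± 0.15 for mt-Nd1, both complex I genes, and 0.15 ± 0.11 for mt-Co1, the catalytic subunit of complex IV (edgeR adjusted p = 0.243, 0.417 and 0.539). Behind them are 211, 146, 208, 195, 242 and 232 counts for mt-Nd2, 83, 77, 112, 76, 96 and 106 for mt-Nd1, and 172, 149, 210, 163, 175 and 183 for mt-Co1. mt-Rnr2 and mt-Ts2 were near 0, at 0.10 ± 0.35 and -0.04 ± 0.37 (edgeR adjusted p = 0.914 and 0.975), on under 20 counts per library. Minus-strand tRNA genes other than mt-Ty ranged from -0.40 ± 0.34 for mt-Te (edgeR adjusted p = 0.594) to 0.70 ± 0.27 for mt-Tq (adjusted p = 0.126). Between them were 0.46 ± 0.16 for mt-Ta, 0.36 ± 0.17 for mt-Tn, 0.36 ± 0.14 for mt-Tc and 0.63 ± 0.28 for mt-Tp (edgeR adjusted p = 0.0774, 0.229, 0.141 and 0.220). The tRNA gene mt-Te and mt-Nd6, at -0.26 ± 0.31 (edgeR adjusted p = 0.751), were thus the minus-strand genes with values below 0.

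**Figure D5:**
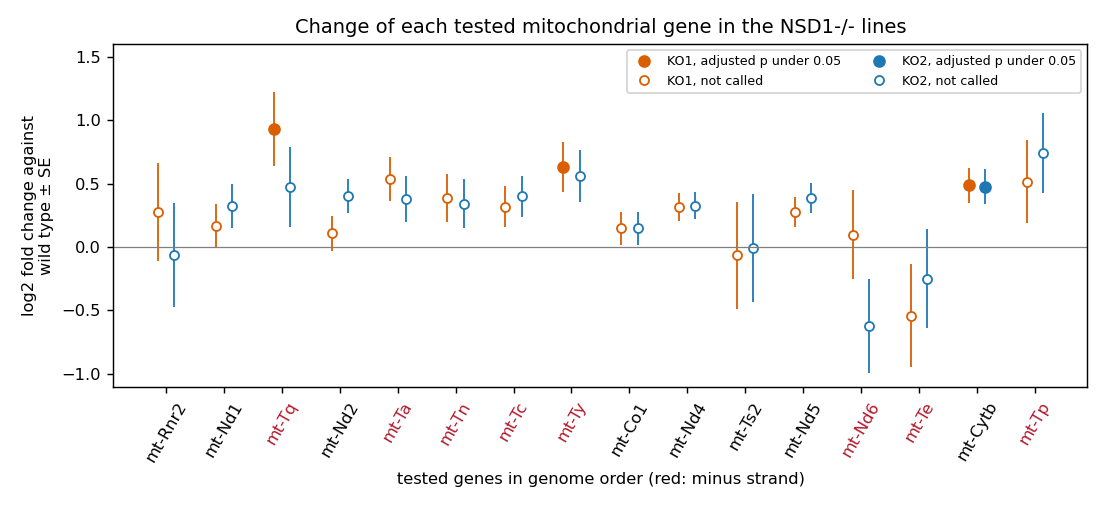
Log2 fold change against wild type, with its standard error, of the 16 tested mitochondrial genes in KO1 (orange) and KO2 (blue); filled points have an adjusted p under 0.05. mt-Cytb is called in both lines, mt-Tq and mt-Ty in KO1, and mt-Nd6 lies at 0.10 in KO1 and -0.62 in KO2.

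Each line was also compared with the same wild type libraries, so the comparisons are not independent. In KO1, 3 genes rose, where 3.46% of all genes were called higher, and none fell, where 6.34% were called lower. mt-Cytb changed by 0.49 ± 0.14 (edgeR adjusted p = 0.0249), mt-Ty by 0.63 ± 0.20 (adjusted p = 0.0395) and mt-Tq by 0.93 ± 0.29 (adjusted p = 0.0394). In KO2, mt-Cytb alone rose, by 0.47 ± 0.14 (edgeR adjusted p = 0.0321), where 5.01% of all genes were called higher, and none fell, where 3.97% were called lower. There mt-Ty was at 0.56 ± 0.20 and mt-Tq at 0.47 ± 0.32 (edgeR adjusted p = 0.0828 and 0.402). mt-Nd4 was at 0.32 ± 0.11 in KO1 and 0.33 ± 0.11 in KO2, mt-Nd5 at 0.28 ± 0.12 and 0.38 ± 0.12, and mt-Ta at 0.54 ± 0.18 and 0.38 ± 0.18, none called. With no filter mt-Nd5 was called in KO1 (0.25, edgeR adjusted p = 0.00271) and KO2 (0.40, adjusted p = 2.63e-08), and with a minimum count of 20 mt-Nd4 was called in both lines (adjusted p = 0.0328 and 0.0494), mt-Ta in KO1 (adjusted p = 0.0277) and mt-Nd5 in KO2 (adjusted p = 0.0335). DESeq2's Wald test called no mitochondrial gene in either line (4 in KO1 and 3 in KO2 at an unadjusted p under 0.05). Of all genes it called 207 in KO1 and 170 in KO2. Without wild type replicate 2, none of the main calls in KO1 or KO2 was kept, and mt-Nd6 was at -0.27 and -0.97. The median log2 fold change of the mitochondrial genes tested was then 0.18 in KO1 and 0.19 in KO2. Without wild type replicate 1 these medians were 0.44 and 0.54. In KO1 no call was kept without KO1 replicate 1, with a median of 0.12. The KO1 median was 0.32 without KO2 replicate 1 and 0.27 without KO2 replicate 2. The KO1 calls of mt-Tq and mt-Ty were also lost without KO1 replicate 2, and the KO2 call of mt-Cytb without KO2 replicate 1 (0.35, edgeR adjusted p = 0.0903). The KO2 median was 0.36 and 0.35 without KO1 replicate 1 and 2, and 0.30 and 0.47 without KO2 replicate 1 and 2.

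Between KO1 and KO2 no mitochondrial gene was called by edgeR, where 7.93% of all genes were called higher in KO1 and 11.4% lower. One gene, mt-Nd2, had an unadjusted p under 0.05, with a log2 difference of KO1 minus KO2 of -0.29 ± 0.13 (edgeR adjusted p = 0.120). DESeq2's Wald test had none called and 0 at that level, where it called 417 of all genes. The largest difference among the 16 was at mt-Nd6, at 0.72 ± 0.37 (edgeR adjusted p = 0.309). In CPM, mt-Nd6 was at 1280 and 710 in wild type, 1098 and 1029 for KO1, and 732 and 563 for KO2. Against wild type it was 0.10 ± 0.35 in KO1 (edgeR adjusted p = 0.917) and -0.62 ± 0.37 in KO2 (adjusted p = 0.455). Of the 3 groups, KO2 had the lowest mt-Nd6 mean. The 8 fibroblast markers were lowest in KO2 as well, but on few counts. Of these, Vim alone held 8 and 12 in wild type, 9 and 12 for KO1, and 6 and 1 for KO2. Vim was the one marker of these 8 tested, and edgeR did not call it in KO2. As counts may come from the opposite strand, the fibroblast markers are not used as a check of cell identity either. Their part in the mt-Nd6 values was not tested. The spread between the wild type libraries enters all of these tests. With wild type replicate 1 or 2 left out, so that the lone wild type library is assumed to vary like the other groups, the difference between KO1 and KO2 stayed at 0.71 and 0.70 and its edgeR adjusted p became 1.35e-10 and 8.28e-14. Against wild type, mt-Nd6 in KO1 was 0.58 without wild type replicate 1 (edgeR adjusted p = 7.48e-06) and -0.27 without replicate 2 (adjusted p = 0.0204), a change of direction. In KO2 it was -0.13 (edgeR adjusted p = 0.556) and -0.97 (adjusted p = 3.17e-16). The median KO1 minus KO2 log2 difference of the mitochondrial genes tested was -0.02 without either wild type replicate. It was -0.15 and 0.06 without KO1 replicate 1 and 2, and 0.04 and -0.11 without KO2 replicate 1 and 2.

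Nuclear genes that act in mitochondria were taken by the symbol of the counted gene, and few had enough counts. Of 16 genes for mitochondrial transcription and DNA replication, 7 were tested. In the lines together edgeR called 0 of them (2 at an unadjusted p under 0.05) and DESeq2 0, with a median log2 fold change of -0.36 against -0.01 over all genes. In KO1, 1 fell, where 6.34% of all genes were called lower, and DESeq2 also called 1. In KO2, 2 rose and 1 fell, where 5.01% of all genes were called higher and 3.97% lower, and DESeq2 called 0. Peo1, which encodes the mitochondrial DNA helicase Twinkle, held 358 and 385 counts in wild type, 318 and 254 for KO1, and 438 and 493 for KO2, so it fell in KO1 (-0.44 ± 0.10, edgeR adjusted p = 0.00188) and rose in KO2 (0.32 ± 0.09, adjusted p = 0.0226). Its exons overlap those of Mrpl43, a mitochondrial ribosomal protein gene on the other strand, by 97 bases. Polg, the catalytic subunit of the mitochondrial DNA polymerase, was higher in KO2 by 0.27 ± 0.08 (edgeR adjusted p = 0.0256), and its exons lie opposite those of Fanci over 856 bases. Mterfd2, a relative of the mitochondrial transcription termination factor, fell in KO2 from 23 and 27 counts to 5 and 6 (-2.17 ± 0.40, edgeR adjusted p = 3.97e-04), opposite Sned1.

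In the next 3 groups edgeR called 0 genes in the lines together (1 in each at an unadjusted p under 0.05), as did DESeq2, and the single calls in KO1 or KO2 given here stand against the same shares of all genes. Of 25 genes for mitochondrial RNA processing and stability 9 were tested (median 0.11). The translation initiation factor gene Mtif3, opposite Gtf3a, was the one called in KO2 (0.34 ± 0.06, edgeR adjusted p = 2.21e-04). Of 38 nuclear complex I genes 9 were tested (median 0.05), and Ndufb10 fell in KO2 (-0.64 ± 0.20, edgeR adjusted p = 0.0433; DESeq2 called none). Of 37 genes of complexes III, IV and V 10 were tested (median -0.15), and Atp5f1, opposite Wdr77, fell in KO1 (-0.28 ± 0.06, edgeR adjusted p = 0.00235). Of 76 mitochondrial ribosomal protein genes 19 were tested, and 2 fell in the lines together, where 3.89% of all genes were called lower (5 at an unadjusted p under 0.05; DESeq2 called 1), with a median of 0.01. Mrps25, opposite Nr2c2, held 1001 and 980 counts in wild type, 763 and 728 for KO1, and 819 and 881 for KO2 (-0.35 ± 0.05, edgeR adjusted p = 5.03e-05). Mrpl19, opposite AW146020, held 247 and 227, 130 and 149, and 227 and 233 (-0.44 ± 0.10, edgeR adjusted p = 0.00443), so its low libraries were those of KO1. Between KO1 and KO2, 7.93% of all genes were called higher in KO1 and 11.4% lower. There edgeR called 2 transcription and replication genes higher and 1 lower. Of the 9 RNA processing and stability genes, 1 was called higher and 4 lower. DESeq2 called 1 in each of these groups. In the last 3 groups edgeR called 0, 1 and 2, all lower. Lonp1 was higher in KO1 (0.52 ± 0.15), and 1810035L17Rik (-0.17 ± 0.06) and Ptcd1 (-0.25 ± 0.09) were lower. For genes with another gene opposite, the counts may stand for that gene.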

How the data were processed

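RNA libraries of 6 of the 50 samples were used; the 44 others were not analysed here. The deposited tables hold raw counts per gene. Exon fragments were assigned to genes by the authors with featureCounts 2.0.1 at strand setting 1, per the file headers, without the options that admit multi-mapping fragments or fragments touching several genes. The build is mm9 and the tools include STAR 2.5.4b and Trim Galore 0.6.4, per the submitters' processing notes. Spans and strands of all 37310 genes equalled the GENCODE version for mm9. The strandedness of the library kit is not given in the sources used.

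Counts from all 6 libraries were fitted in edgeR 4.0.16 (R 4.3.3): TMM scaling, filterByExpr at minimum count 10, a robust quasi-likelihood fit with 3 group means and 3 residual degrees of freedom, and Benjamini-Hochberg adjustment over 5034 genes. Library shares and ratios were compared by exact two-sided permutation tests. Nuclear copies were found with blastn 2.17.0. The steps were tested on simulated counts. The genes named were all mitochondrial genes, AY036118, and up to 3 called members per gene list and comparison; Nsd1, Actb, the gene models of the nuclear copy and the genes opposite were further additions, chosen with their values known. The members and the lists were chosen with earlier results of these data known. The alternatives were other scalings, DESeq2 1.42.0, other filters, a replicate term, and each library left out in turn.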

Additional observations from a re-analysis of the deposited data

Results flagged for a closer look

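In mt-Nd6, both KO1 libraries, at 1098 and 1029 CPM, were above the wild type mean of 995, and both KO2 libraries, at 732 and 563, were below it. Neither line passed edgeR's quasi-likelihood test (log2 fold change 0.10 and -0.62, adjusted p = 0.917 and 0.455), and the wild type libraries, at 1280 and 710 CPM, lie on both sides of the KO1 values. The KO1 minus KO2 log2 difference was 0.72 ± 0.37 and did not pass the test (adjusted p = 0.309). Without wild type replicate 2 both lines were below wild type, at -0.27 and -0.97. The source of the spread between the wild type libraries was not tested.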

How the results depend on the processing

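With all libraries, 3 of the 16 mitochondrial genes tested were called in the lines together, 3 in KO1, 1 in KO2 and 0 between KO1 and KO2. Leaving out each library in turn moved these numbers. Each such fit leaves 1 library in a group and tested 17 or 18 mitochondrial genes, so its calls are not counted here. The minus-strand share difference then ranged from -8.49 to -1.29 points. DESeq2's Wald test called 0 in each of the 3 comparisons with wild type, where it called 115, 207 and 170 of all genes. The 4 knockout libraries as a single group gave 0, where 6 of all genes were called. Without AY036118 in the scaling, 5 were called in KO1 and 3 in KO2; with a minimum count of 20, likewise 5 and 3. In KO2, DESeq2 size factors and scaling on genes outside chromosome M each gave 3, and no filter 4. Without mt-Nd6 the minus-strand share difference was 0.758 points. With one library left out, log2 fold changes in the lines together ranged from -0.40 to 0.45 for mt-Ts2, -0.62 to 0.23 for mt-Nd6, -0.93 to 0.45 for mt-Te and -0.013 to 0.24 for mt-Rnr2. In KO1 they ranged from -0.15 to 0.41 for mt-Nd2 and -0.27 to 0.58 for mt-Nd6. Of 836 values over all 16 genes, 4 comparisons and the alternatives, 51 had another sign than the main value, 1 of them with either value called. The cause was not tested.

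Over all genes tested, replicate numbers did not pair the libraries: correlations between groups of the replicate 1 minus replicate 2 difference were 0.011, -0.0069 and -0.036. The mitochondrial share was still higher in replicate 1 of every group, and pairing of that share was not tested. With a replicate block, 4 mitochondrial genes were called in the lines together, 4 in KO1, 3 in KO2 and 1, mt-Nd6, between KO1 and KO2 (0.73, edgeR adjusted p = 0.0308). The block also called mt-Nd5 in the lines together (adjusted p = 2.97e-05), KO1 (8.47e-04) and KO2 (1.14e-05).

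Over all genes, edgeR called 333 in the lines together, 493 in KO1, 452 in KO2 and 971 between KO1 and KO2, DESeq2's Wald test 115, 207, 170 and 417, and the single knockout group 6. The share called higher differed by more than 10 percentage points with DESeq2: 47 of 207 against 174 of 493 in KO1, 118 of 170 against 252 of 452 in KO2, and 103 of 417 against 399 of 971 between the lines. With 1 library left out, the lowest counts were 213, 280, 328 and 561. Counts under 20 per library, as at mt-Rnr2, mt-Ts2 and the plus-strand tRNA genes, limit detection there. A lone library of a group was assumed to vary like the others.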
